A study of Mus musculus with 6 samples.

Results

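The genes described here encode the Wnt signalling system at the cell surface: 19 Wnt ligands, the ligand-handling proteins Porcn and Wls, 12 receptors (Fzd1 to Fzd10, Lrp5 and Lrp6), 10 secreted inhibitors of the Sfrp, Dkk, Frzb and Wif1 families, and 4 secreted agonists of the Rspo family. The genes also include Lef1, a nuclear factor, and the pathway target Axin2, both of which work inside the cell. They were matched by gene symbol, as probe sets with 1 symbol in the platform annotation. They comprised 94 of the 45101 probe sets and 49 of the 18193 genes with such a symbol. The list was chosen with earlier results of these data known. Lateral ventricle choroid plexus, a vascular fold of the brain ventricles whose epithelium secretes cerebrospinal fluid, came from 6 male mice of the outbred CD1 stock, 3 aged 18 months and 3 aged 2 months. An array stood for 1 mouse, whose left and right plexuses were combined, and the labels name no transgene or treatment. Values are log2 intensities from Affymetrix arrays, on which a probe set can be compared between mice but not with another probe set.

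Wnt ligands are lipid-modified secreted proteins. Porcn adds the lipid, Wls carries the ligand to the cell surface, and the ligand binds a Frizzled receptor (Fzd), alone or with the co-receptors Lrp5 and Lrp6. In the best known branch this stabilises beta-catenin, which works with Lef1 and related factors to switch on targets such as Axin2, itself a brake on the pathway. Wnt signals pattern the dorsal midline of the embryonic forebrain, from which the choroid plexus arises, and act on adult neural stem cells and brain vessels.

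The tissue carried the transcripts of plexus epithelium, and neuronal transcripts in varying amounts. Ttr, the thyroxine carrier of that epithelium, averaged 14.30 ± 0.05 at 18 months and 14.47 ± 0.01 at 2 months (SD, n = 3 each). The mean log2 level of 8 epithelial markers ranged from 12.50 to 12.62 at 18 months and from 12.42 to 12.57 at 2 months, and all 8 exceeded the highest of 27 control probe sets for bacterial transcripts (4.51), the gauge of background used here. The mean of 8 neuronal markers ran from 6.61 to 8.63 at 18 months and from 6.92 to 8.63 at 2 months, with replicate 3 highest at both ages. Pituitary and ependymal markers had separate ranges at the 2 ages. Pituitary markers (5 on the array, 3 of them over background) lay at 5.78 to 7.39 at 18 months against 4.14 to 4.36 at 2 months, and ependymal markers (8 on the array, 7 over background) at 7.36 to 7.82 against 7.92 to 8.61. Markers of macrophages (8, all over background) overlapped at 7.71 to 8.47 and 7.42 to 7.95. In whole tissue, fewer cells of a type and less RNA per cell cannot be told apart.

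Of the 49 genes, 30 were bright enough to test, with a mean log2 intensity of at least 4.92 (the 40th percentile over probe sets that are not controls). These comprised 9 of 19 ligands, both ligand-handling genes, 11 of 12 receptors, 4 of 10 secreted inhibitors, 2 of 4 agonists, and Lef1 and Axin2. By limma with Benjamini-Hochberg adjustment over all 12681 genes tested, 0 Wnt genes were higher and 0 lower at 18 months at an adjusted p under 0.05, where the share of all genes was 0.00% in each direction. The lowest adjusted p among the Wnt genes was 0.636. At an unadjusted p under 0.05, 1 of the 30 was higher (Wnt2b) and 0 were lower, against 4.02% and 3.03% of all genes tested. Wnt2b was also the 1 gene of the 30 whose older mice all lay above the younger ones, and 0 lay wholly below them, against 7.06% and 6.25% of all genes. The median log2 difference of the 30 was 0.04, beside 0.00 over all genes tested, and the median size of the difference regardless of sign was 0.10, beside 0.21.

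**Figure D1:**
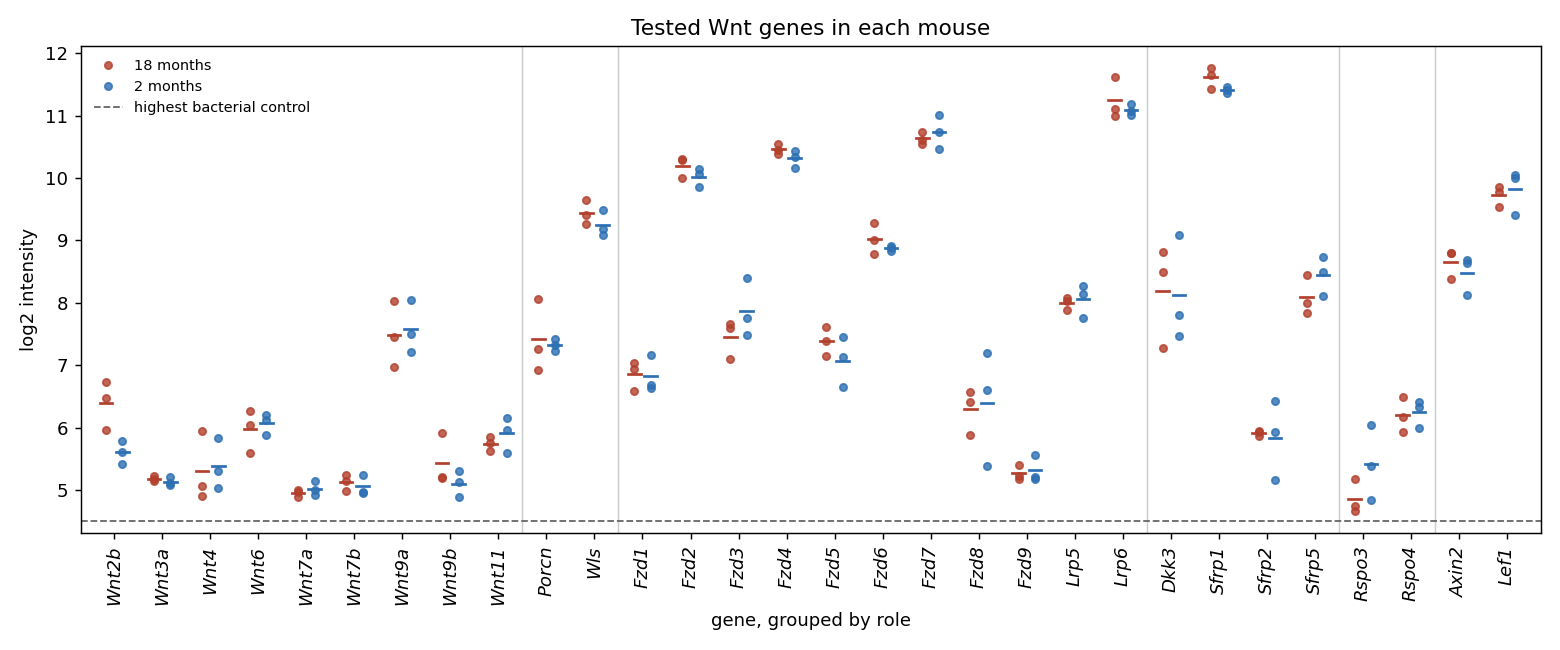
Log2 intensity of each of the 30 tested Wnt genes (x axis, grouped by role) in each mouse; points are mice, short lines the means of 3 mice, the dashed line the highest bacterial control mean (4.51). The points of the 2 ages overlap for every gene shown except Wnt2b, whose 3 mice at 18 months (5.96 to 6.74) lie above the 3 at 2 months (5.42 to 5.79).

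The intervals around these differences show what size of change the brightest probe set of each gene leaves possible. For 25 of the 30 genes (83.3%) the 95% confidence interval lay wholly inside a 2-fold change in either direction, beside 63.5% of all genes tested. The other 5 were Wnt2b (upper bound 1.38), Rspo3 (lower bound -1.35), Fzd3 (lower bound -1.13), Fzd8 (-1.22 to 1.02) and Dkk3 (-1.24 to 1.40). For these 5, a 2-fold difference in at least 1 direction lay within the interval. Dimmer probe sets over the filter also reached past 2-fold for Lrp6 (-1.53 to 0.77), Fzd2 (-1.05 to 1.28) and Sfrp5 (-1.21 to 1.31), so the bounds depend on the probe set.

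**Figure D2:**
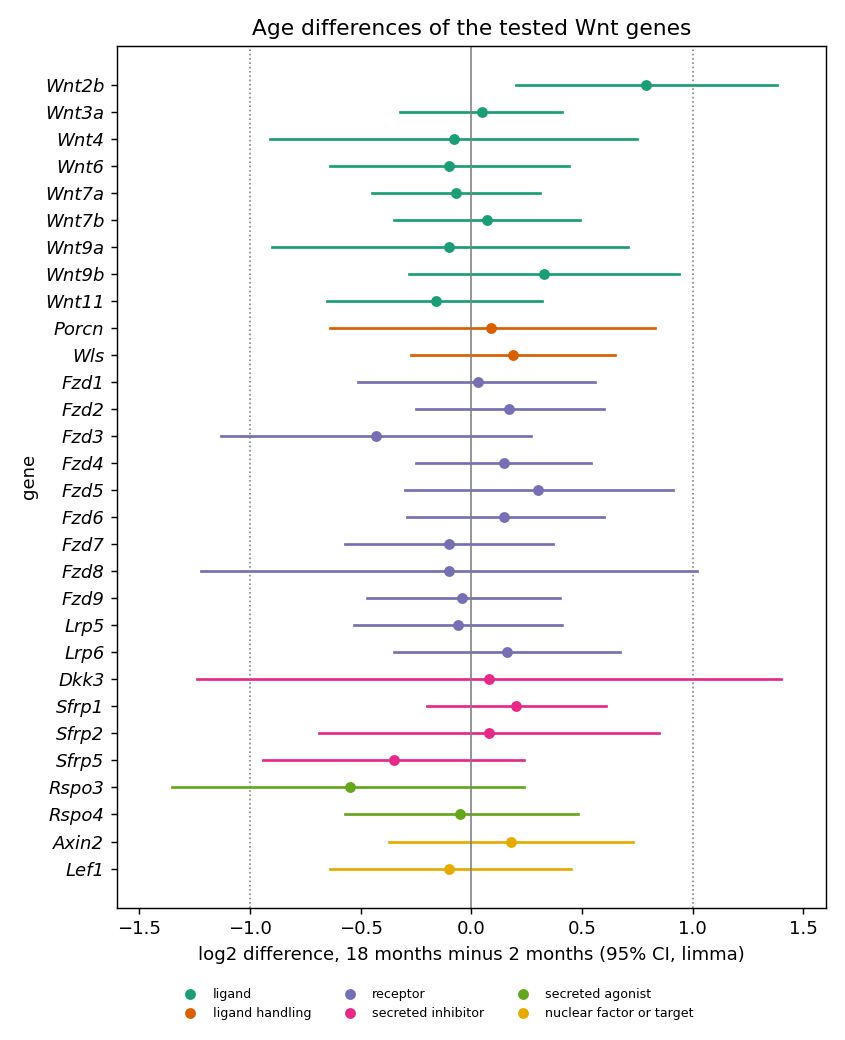
Log2 difference (18 months minus 2 months, x axis) of each tested Wnt gene with its 95% confidence interval from limma, coloured by role; dotted lines mark a 2-fold change. The interval of Wnt2b (0.20 to 1.38) is the only one that does not cross 0, and the intervals of Dkk3, Fzd8, Rspo3, Fzd3 and Wnt2b reach past a dotted line.

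Among the 9 tested ligands, each read by its brightest probe set, Wnt2b had the largest difference. Wnt2b is a ligand of the beta-catenin branch known from the cortical hem, the embryonic strip beside the plexus. Its log2 intensity was 5.96, 6.74 and 6.48 in the mice aged 18 months, against 5.61, 5.79 and 5.42 in those aged 2 months. All 3 older mice lay above all 3 younger ones, the nearest pair being 18-month replicate 1 and 2-month replicate 2. The log2 difference was 0.79 (SE 0.25, 1.73-fold; limma adjusted p = 0.636, unadjusted p = 0.0162), which did not pass the threshold. Without 18-month replicate 2 it was 0.61 (limma, unadjusted p = 0.0526), and without 2-month replicate 3 it was 0.69 (limma, unadjusted p = 0.0535). Without replicate 3 of both ages, the mice with most neuronal signal, it was 0.65 (limma, unadjusted p = 0.117). With the neuronal marker score as a covariate it was 0.79 (limma, unadjusted p = 0.0255). A single probe set reads Wnt2b here.

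The promoter of Wnt2b is shown because, among the tested Wnt genes read by their brightest probe set, it was the 1 with separate ages. Those of Wnt11 and Fzd7 stand beside it because they hold a match to the letters bound by Tcf/Lef factors, the DNA-binding partners of beta-catenin. Each window runs from 250 bases before to 50 bases after the RefSeq gene start in build GRCm38.p6, 5′ to 3′ on the gene's strand. Capitals mark a match to CTTTG followed by 2 bases that are each A or T, searched on either strand. The windows lie at chr3:104961660-104961959 on the minus strand (Wnt2b), at chr7:98834862-98835161 on the plus strand (Wnt11, the first of its windows) and at chr1:59481897-59482196 on the plus strand (Fzd7).
Wnt2b: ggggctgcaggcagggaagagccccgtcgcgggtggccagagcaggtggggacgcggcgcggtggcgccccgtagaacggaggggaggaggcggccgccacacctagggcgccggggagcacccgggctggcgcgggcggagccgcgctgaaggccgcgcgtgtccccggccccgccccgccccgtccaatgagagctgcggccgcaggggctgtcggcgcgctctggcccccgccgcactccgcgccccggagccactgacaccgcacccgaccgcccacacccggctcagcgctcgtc
Wnt11: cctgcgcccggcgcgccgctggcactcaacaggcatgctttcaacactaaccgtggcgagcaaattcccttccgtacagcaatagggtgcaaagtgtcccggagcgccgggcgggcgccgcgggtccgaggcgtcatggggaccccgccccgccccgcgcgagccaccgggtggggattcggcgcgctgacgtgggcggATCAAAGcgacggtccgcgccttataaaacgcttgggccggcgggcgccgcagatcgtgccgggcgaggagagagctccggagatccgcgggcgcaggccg
Fzd7: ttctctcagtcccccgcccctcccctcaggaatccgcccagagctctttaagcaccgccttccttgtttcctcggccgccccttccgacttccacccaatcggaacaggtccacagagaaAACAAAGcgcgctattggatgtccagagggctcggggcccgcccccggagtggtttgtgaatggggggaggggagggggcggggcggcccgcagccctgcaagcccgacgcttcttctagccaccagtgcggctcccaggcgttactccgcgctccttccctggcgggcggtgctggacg
The Wnt2b window held 0 matches, while the other windows printed were picked for holding 1 each, and a second Wnt11 window, not printed, held 0. RefSeq windows were at hand for 32 of the 49 Wnt genes, 38 windows in all. Of these, 6 held a match (15.8%), in Fzd7, Lef1, Wnt5b, Wnt11, Wnt3 and Dkk1, beside 16.9% of all 32851 windows.

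The other 8 tested ligands lay within a narrow band of differences, from -0.16 to 0.33. Wnt7a, Wnt7b, Wnt3a, Wnt9b and Wnt4 were near the filter, with means over the 6 arrays from 4.99 for Wnt7a to 5.35 for Wnt4. Wnt9b, known for kidney duct signalling, was measured at 5.91, 5.21 and 5.19 at 18 months against 5.30, 5.13 and 4.89 at 2 months. The ages overlapped, and 18-month replicate 1 stood above the other mice (log2 difference 0.33, SE 0.25). Wnt11, a ligand that acts mainly without beta-catenin, had 5.75, 5.63 and 5.86 at 18 months, against 5.97, 6.16 and 5.60 at 2 months (difference -0.16, SE 0.20). The lowest and the middle of the Wnt11 values at 2 months enclosed the 18-month values. Wnt6 had 6.05, 5.60 and 6.27 at 18 months, against 5.88, 6.13 and 6.20 at 2 months (-0.10, SE 0.23), again overlapping. Wnt9a averaged 7.49 ± 0.53 at 18 months and 7.58 ± 0.42 at 2 months (SD, n = 3 each). Wnt4 differed by -0.08 (SE 0.35), Wnt7a by -0.07 (SE 0.16), Wnt7b by 0.07 (SE 0.17) and Wnt3a by 0.05 (SE 0.15). Wnt7a and Wnt7b are the ligands through which neural cells instruct brain vessels.

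The other 10 ligands were too dim to test. Wnt5a, a ligand of beta-catenin-independent signalling, had means of 4.94 at 18 months and 4.81 at 2 months. Another Wnt5a probe set, also under the filter, had 3.33, 4.86 and 5.01 at 18 months, against 5.99, 5.06 and 4.83 at 2 months, overlapping (-0.89, SE 0.53). Wnt5b averaged 4.64 at 18 months and 4.76 at 2 months, and Wnt10b 4.49 and 4.65. The means of Wnt8a, Wnt16, Wnt8b, Wnt2, Wnt3, Wnt1 and Wnt10a over the 6 arrays lay under the highest bacterial control, from 4.23 for Wnt8a to 2.81 for Wnt10a. Of these, Wnt2 had separate ages: it had 3.40, 3.39 and 3.59 at 18 months, against 3.70, 3.85 and 3.95 at 2 months.

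The ranges of both genes that make ligands exportable overlapped between the ages. Wls, the carrier, had 9.64, 9.27 and 9.40 at 18 months, against 9.18, 9.08 and 9.48 at 2 months, with the ages overlapping (log2 difference 0.19, SE 0.19). Porcn, the acyltransferase, averaged 7.42 ± 0.59 at 18 months and 7.32 ± 0.09 at 2 months (SD, n = 3 each), and 18-month replicate 2 alone reached 8.07.

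Of the 12 receptors, 11 passed the filter. Fzd10, with means of 3.46 at 18 months and 3.59 at 2 months, lay under the highest bacterial control, and Fzd9 was near the filter, with means of 5.28 at 18 months and 5.31 at 2 months. Fzd2 had 10.00, 10.28 and 10.30 at 18 months, against 9.85, 10.14 and 10.07 at 2 months (log2 difference 0.17, SE 0.18). Fzd7, a Frizzled of the beta-catenin branch whose promoter is printed above, had 10.61, 10.55 and 10.74 at 18 months, against 10.74, 11.01 and 10.46 at 2 months (-0.10, SE 0.20). For both genes the ages overlapped in these brightest probe sets. A dimmer Fzd7 probe set had 5.86, 5.80 and 6.01 at 18 months, against 5.53, 5.63 and 5.77 at 2 months, with separate ages and the opposite sign (0.25, SE 0.16). The co-receptor Lrp6 had 11.00, 11.11 and 11.62 at 18 months, against 11.18, 11.01 and 11.07 at 2 months. Its difference was 0.16 (SE 0.21), and -0.03 without 18-month replicate 3, the highest mouse. Lrp5 differed by -0.06 (SE 0.20). Fzd6, known for planar cell polarity, had 9.28, 8.79 and 9.01 at 18 months, against 8.91, 8.83 and 8.88 at 2 months (0.15, SE 0.18). One older mouse lay under all the younger ones and the others above them. Fzd5 had 7.39, 7.61 and 7.15 at 18 months, against 7.13, 7.45 and 6.65 at 2 months (0.30, SE 0.25), overlapping, with 2-month replicate 3 lowest. Fzd1 differed by 0.03 (SE 0.22), Fzd9 by -0.04 (SE 0.18) and Fzd8 by -0.10 (SE 0.47). Fzd8 varied most among the receptors, with an SD of 0.36 at 18 months and 0.92 at 2 months.

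Fzd3 and Fzd4 show how far the reading depended on the probe set. Fzd3, a receptor of axon guidance and planar polarity, had 7.66, 7.10 and 7.59 at 18 months, against 7.48, 7.75 and 8.40 at 2 months in its brightest probe set, a log2 difference of -0.43 (SE 0.29). The ages overlapped, and 2-month replicate 3 stood above the rest. All 6 Fzd3 probe sets passed the filter, and their differences ranged from -0.56 to 0.42, with both signs present. Those other than the brightest gave -0.56, 0.02, 0.26, 0.42 and 0.23. The mean of all the Fzd3 sets gave -0.01. Fzd4, the receptor through which Norrin and Wnt ligands maintain brain and retinal vessels, had 10.45, 10.38 and 10.54 at 18 months, against 10.44, 10.34 and 10.16 at 2 months in its brightest probe set (0.15, SE 0.16). A dimmer Fzd4 probe set had 9.97, 10.12 and 9.98 at 18 months, against 9.62, 9.51 and 9.45 at 2 months, with separate ages. Its difference was 0.50 (SE 0.15, limma unadjusted p = 0.0138 and adjusted p = 0.766 over all non-control probe sets). The third Fzd4 probe set gave -0.08 (SE 0.20). Of all 94 Wnt probe sets, 2 had an unadjusted p under 0.05 (those of Wnt2b and this one of Fzd4), beside 5.68% of the 45037 non-control probe sets. The ages were separate in 5 of the 94 upward (sets of Wnt2b, Fzd4, Fzd6, Fzd7 and Sfrp1) and in 2 downward (sets of Wnt2 and Rspo2), beside 5.36% and 5.63% of the non-control probe sets. Those of Fzd6, Wnt2 and Rspo2 lay under the filter.

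Across the 13 Wnt genes with more than 1 probe set over the filter, the sets agreed in sign for 3 (Wnt9a, Fzd2 and Dkk3) and differed in sign for the other 10. Lrp6 gave 0.16 and -0.38, Sfrp5 gave -0.35 and 0.05, and Axin2 gave 0.18 and -0.13.

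**Figure D3:**
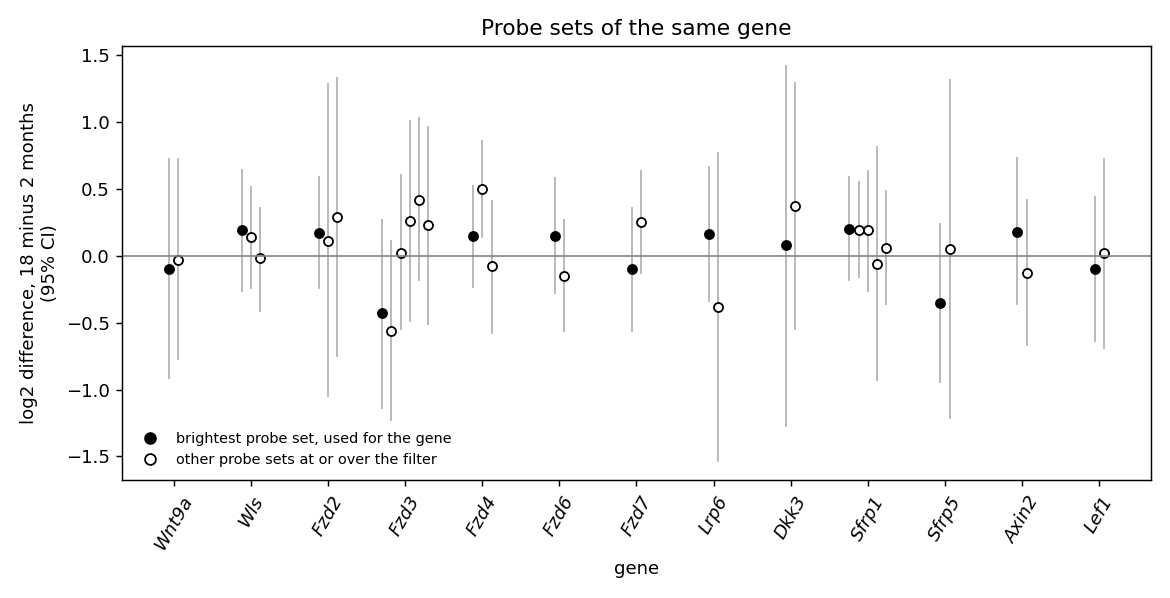
Log2 difference (18 months minus 2 months, y axis) with its 95% confidence interval for every probe set at or over the filter, for the 13 Wnt genes with more than 1 such set (x axis); filled points are the brightest set of each gene. The 6 Fzd3 sets spread from -0.56 to 0.42 on both sides of 0, and the only interval clear of 0 is that of a dimmer Fzd4 set at 0.50.

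Secreted inhibitors bind ligands or Lrp co-receptors outside the cell. Sfrp1, a soluble Frizzled-like decoy, had 11.65, 11.76 and 11.42 at 18 months, against 11.36, 11.45 and 11.41 at 2 months. The ages overlapped, with 18-month replicate 3 between the younger mice, and the log2 difference was 0.20 (SE 0.17). A second Sfrp1 probe set had 11.36, 11.46 and 11.42 at 18 months, against 11.10, 11.32 and 11.24 at 2 months, with separate ages (0.19, SE 0.15). The 5 Sfrp1 probe sets gave from -0.06 to 0.20. Sfrp5, of the same family, had 8.45, 8.0 and 7.84 at 18 months, against 8.73, 8.50 and 8.11 at 2 months, with overlapping ages (difference -0.35, SE 0.25). Sfrp2 averaged 5.92 ± 0.05 at 18 months and 5.84 ± 0.64 at 2 months (SD, n = 3 each).

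Dkk3, a divergent member of the Dickkopf family, varied more from mouse to mouse than between ages. It had 7.27, 8.50 and 8.82 at 18 months, against 7.80, 7.47 and 9.09 at 2 months, a log2 difference of 0.08 (SE 0.55). Snap25, a synaptic gene of neurons, had 10.43, 11.63 and 12.29 in the same older mice and 11.10, 10.23 and 12.30 in the younger ones. Within each age the mice stood in the same order for both genes, and also for the myelin gene Mbp (10.21, 11.14 and 11.79 at 18 months, 11.23, 10.01 and 11.85 at 2 months). Mog, another myelin gene, had 6.96, 7.42 and 7.60 at 18 months, against 5.18, 5.33 and 6.21 at 2 months, which kept this order among the older mice but not among the younger ones, and its ages were separate. With the neuronal marker score as a covariate the Dkk3 difference was 0.17 and its SE 0.25. Rspo3, described below, had its mice in the same order as Snap25 within each age. With that covariate the Rspo3 difference was -0.50 and its SE 0.21, against -0.55 and 0.33 without it. A smaller SE was not particular to these genes. It went from 0.47 to 0.31 for Fzd8, whose replicate 3 was lowest at both ages, and from 0.35 to 0.27 for Wnt4. For Axin2 it rose from 0.23 to 0.24. The shared order was noticed after the values were seen, and how many other genes had it was not counted. The dimmer Dkk3 probe set had 7.32, 7.08 and 7.39 at 18 months, against 6.56, 6.34 and 7.76 at 2 months, which kept the order of Snap25 among the younger mice but not among the older ones. The part of brain tissue in the Dkk3 and Rspo3 levels was not tested.

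**Figure D4:**
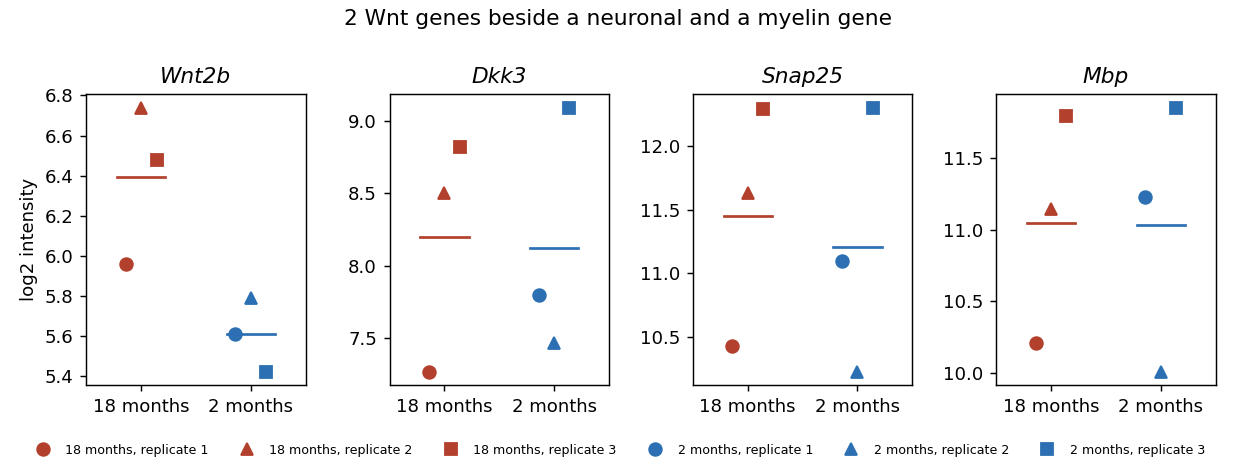
Log2 intensity (y axes, each on its own scale) of Wnt2b, Dkk3, the neuronal gene Snap25 and the myelin gene Mbp by age; each symbol is 1 mouse and lines are means of 3. Replicate 3 is highest at both ages for Dkk3, Snap25 and Mbp, and the Wnt2b points of the ages do not overlap.

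The remaining inhibitors were dim. Sfrp4 had 5.56, 4.04 and 4.50 at 18 months, against 4.03, 4.13 and 4.16 at 2 months, with 1 older mouse clear of background and the rest below the highest bacterial control. Dkk4, Frzb, Dkk1, Dkk2 and Wif1 had means over the 6 arrays from 4.38 for Dkk4 to 1.82 for Wif1, all under the highest bacterial control.

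R-spondins amplify Wnt signals by keeping Frizzled receptors on the cell surface. Rspo3 had 4.67, 4.74 and 5.18 at 18 months, against 5.39, 4.84 and 6.04 at 2 months, close to the filter. The ages overlapped at 2-month replicate 2, and the log2 difference was -0.55 (SE 0.33; limma adjusted p = 0.789). Without 1 mouse the Rspo3 difference ranged from -0.85 to -0.25. It was -0.85 without 2-month replicate 2 (limma, unadjusted p = 0.0289) and -0.25 without 2-month replicate 3 (limma, unadjusted p = 0.411). A dimmer Rspo3 probe set, under the filter, had the opposite sign (0.20, SE 0.16). Rspo4 averaged 6.20 ± 0.28 at 18 months and 6.25 ± 0.23 at 2 months (SD, n = 3 each). Rspo2 (4.37 at 18 months and 4.64 at 2 months, with separate ages) and Rspo1 (3.69 and 3.56) were not tested.

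The ranges of Lef1 and Axin2, the factor and the target at the end of the pathway, overlapped between the ages in their brightest probe sets. Axin2, the feedback target most often read as a gauge of beta-catenin signalling, had 8.80, 8.38 and 8.80 at 18 months, against 8.12, 8.64 and 8.68 at 2 months, with overlapping ages. Its difference was 0.18 (SE 0.23, 95% interval -0.37 to 0.73), and its dimmer probe set gave -0.13 (SE 0.23). Lef1 averaged 9.72 ± 0.16 at 18 months and 9.82 ± 0.35 at 2 months (SD, n = 3 each) and differed by -0.10 (SE 0.23).

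A list of 79 other Wnt pathway symbols, covering the destruction complex, Dishevelled proteins, nuclear partners, planar polarity genes and feedback regulators, was read from the same fit. Of the 61 tested, 0 were higher and 0 lower at an adjusted limma p under 0.05. At an unadjusted p under 0.05, 1 was higher and 5 were lower, beside 4.02% and 3.03% of all genes, and the median difference was 0.05. Dvl1, a Dishevelled adaptor that relays the signal from Frizzled, had 11.74, 11.35 and 11.48 at 18 months, against 10.84, 10.99 and 10.66 at 2 months, with separate ages. Its log2 difference was 0.70 (SE 0.19, 1.62-fold; limma adjusted p = 0.568), and its other probe set gave 0.64. Rnf43, a ubiquitin ligase that removes Frizzled receptors and is countered by R-spondins, had 5.43, 5.78 and 6.02 at 18 months, against 6.29, 8.20 and 6.80 at 2 months. All older mice lay under the younger ones, 2-month replicate 2 being far the highest (difference -1.35, SE 0.49; limma adjusted p = 0.682).

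Vangl2, a core planar polarity protein, had 5.78, 6.06 and 6.54 at 18 months, against 6.80, 6.77 and 6.72 at 2 months, also separate (-0.64, SE 0.23). Its other probe sets gave 0.00 and 0.68. Tle3, a corepressor of Tcf/Lef factors, had 8.44, 8.30 and 7.98 at 18 months, against 8.74, 8.84 and 8.61 at 2 months (-0.49, SE 0.19), and its other sets ran from -0.74 to 0.14. Tnik, a kinase of the Tcf complex, differed by -0.53 (SE 0.21), with other sets from -1.08 to 0.38. Gpc3, a cell-surface proteoglycan, differed by -0.72 (SE 0.29), Dvl2 by 0.45 (SE 0.22) and Ryk, a Wnt co-receptor, by 0.44 (SE 0.24). The other Dvl2 probe set gave 0.35, and the other Ryk sets gave 0.31 and 1.27. Sostdc1, a secreted Wnt and BMP antagonist named after its values were seen, had 13.01, 12.81 and 12.99 at 18 months, against 13.02, 13.13 and 13.35 at 2 months (-0.23, SE 0.17). The ages of Sostdc1 did not overlap, though the nearest mice almost met, and only the brighter of its 2 probe sets is given. Gsk3a and Ctnnbip1 (higher at 18 months) and Nkd2 (lower) also had separate ages. Of the 61 pathway genes tested, 14.8% had separate ages, beside 13.3% of all genes tested.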

How the data were processed

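Per the labels' protocols, total RNA (miRNeasy) was amplified with Nugen Pico reagents before biotin labelling. The authors deposited 1 table of intensities made with RMA, per the submitters' processing notes; its version and the genome build are not given in the sources used here. The values ran from 2.47 to 26820.7, a linear scale, and their log2 was taken; array medians lay between 5.56 and 5.65. Whether RMA was run on these 6 arrays alone is unknown. With 3 arrays per age, their number limits precision.

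Of 45037 non-control probe sets, 34945 had 1 gene symbol, 932 several and 9160 none. All 49 Wnt symbols matched the RefSeq table by gene identifier. The brightest probe set stood for a gene, and genes at or over the 40th percentile were tested. Ages were compared with limma 3.58.1 in R 4.3.3 (two-sided, 18 months minus 2 months, no covariates, 6.61 degrees of freedom), with Benjamini-Hochberg adjustment over 12681 genes. The fit was tested on simulated data. The Wnt genes and lists were chosen with earlier results of these data known. Values per mouse are given for the 16 tested Wnt genes with the smallest p. Those of other Wnt genes and dimmer probe sets were picked after the values were seen. The reasons were separate ages, a large difference, the order of the mice or a mouse that stood apart. Of the other pathway genes, the 8 with the smallest p and those with separate ages were named. Alternatives were other filters, probe set rules, normalizations, array weights, a neuronal covariate, a replicate block, an ordinary 2-sample test and leaving out mice.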

Additional observations from a re-analysis of the deposited data

How the results depend on the processing

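The number of Wnt genes past an adjusted p of 0.05 was 0 higher and 0 lower under each of 17 alternatives, as was that of the other pathway genes. Over all genes, the calls were 3 higher and 1 lower with a 60th percentile filter, 5 higher when a gene's probe sets were averaged, 4 higher and 1 lower with centring of each array on its median, 3 higher and 1 lower with array weights, 1 higher with the neuronal covariate, and 0 without any single mouse. The number tested was 49 Wnt genes with no filter, 17 with the 60th percentile, which leaves out Wnt2b, and 94 when every probe set was tested by itself. At an unadjusted p under 0.05, 1 gene was lower with no filter (Wnt2, below background), 2 probe sets were higher when each was tested by itself, and 0 genes were higher with the 60th percentile filter or without both mice highest in neuronal markers, an alternative chosen after seeing the data. Leaving out single mice gave 0 to 1 higher and 0 to 1 lower. The median difference was 0.09 with the 60th percentile filter, 0.00 to 0.06 without single mice and 0.00 without the 2 neuron-rich mice. Of 16 genes, 12 kept their sign in all the alternatives that tested them (15 to 17 each). Each was read by its brightest probe set or the mean of its sets. The other filters, single probe sets, the replicate block and the ordinary 2-sample test could not change a sign. They keep the difference of the brightest set as it was. Of these 12 genes, 7 (Fzd3, Fzd4, Fzd6, Axin2, Sfrp1, Sfrp5 and Wls) had other probe sets over the filter of the opposite sign. With averaged probe sets Fzd5 gave -0.03, Lrp6 -0.11, Fzd7 0.07 and Wnt6 0.04; without single mice Lrp6 ranged from -0.03 to 0.28, Fzd7 from -0.24 to 0.03 and Wnt6 from -0.25 to 0.09; Lrp6 was -0.04 without the 2 neuron-rich mice. The causes were not tested. Wnt2b ranged from 0.61 to 1.01 over all alternatives that tested it. The labels give same-numbered mice of the ages nothing in common but the number. Correlations of their deviations from the age means were -0.02, 0.02 and 0.17, against -0.15 to 0.14 for the other pairs. Whether same-numbered mice shared anything else cannot be told from these. With the replicate block Wnt2b differed by 0.79 (limma adjusted p = 0.649) and 0 Wnt genes passed. Dim probe sets near the bacterial controls limit what can be said of 19 of the 49 genes.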
